A study of Sus scrofa with 3 samples.

Results

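The transcripts described here are transcripts assembled from pig muscle RNA that lie on an autosome (chromosomes 1 to 18) and whose identifier is listed on exactly 1 row of the deposited expression files. They numbered 2176 of 14580 different transcripts in the series. They were chosen by row count and chromosome alone, with no use of expression values. The comparison group was the 10251 autosomal transcripts that are listed on 2 identical rows. The transcripts were assembled from reads of the study's own libraries, and whether row count depends on read level in them was not tested. In the lincRNA list of the paper, transcripts on 1 row carry an assigned strand and those on 2 rows carry none, but the expression files hold no strand, so for most of the 2176 transcripts the strand was not known here. The data were 3 libraries from longissimus dorsi, a back muscle, of 1-month-old Large White female pigs. The EZH2 RIP-Seq library was made from RNA precipitated with an EZH2 antibody, the IgG RIP-Seq library from RNA precipitated with a control antibody, and the lincRNAseq library from total RNA after removal of ribosomal RNA. Each condition had 1 library, so there is no replicate check on any difference between libraries and no p-value was computed. The intervals given below cover counting error over transcripts only. The study's text says in one place that the precipitates and the total RNA came from the same sample of a pig, and in its methods for the precipitation it speaks of pigs, so the number of animals is not certain.

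Long intergenic non-coding RNAs (lincRNAs) are transcripts without coding capacity that lie between annotated genes. Some of them bind EZH2, the subunit of the Polycomb repressive complex 2 that methylates histone H3 on lysine and so helps to silence genes. In skeletal muscle EZH2 holds back muscle genes in proliferating myoblasts. An assembler such as Cufflinks gives a transcript a strand from reads that cross a splice junction, or from a library protocol that keeps the strand. The identifiers here (TCONS numbers) name assembled transcripts and are not paired with gene names, so neither marker genes of muscle nor the function of single transcripts could be examined. The files give the chromosome of each transcript but no start, end or length.

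Single-row transcripts made up 17.5% of the 12427 autosomal transcripts (95% Wilson interval 16.9 to 18.2). The share differed between chromosomes. It was highest on chromosome 6, with 227 of 941 transcripts (24.1%, interval 21.5 to 27.0), followed by chromosome 10 with 113 of 497 (22.7%). It was lowest on chromosome 16, with 54 of 453 (11.9%, interval 9.25 to 15.2), and on chromosome 18, with 47 of 373 (12.6%). The intervals of chromosomes 6 and 16 do not overlap, but these were picked as the highest and lowest of 18 shares. The intervals also treat neighbouring transcripts as independent, and the variation between chromosomes was not tested. On chromosome 1, which had the largest number of single-row transcripts, they were 245 of 1647 (14.9%).

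**Figure D1:**
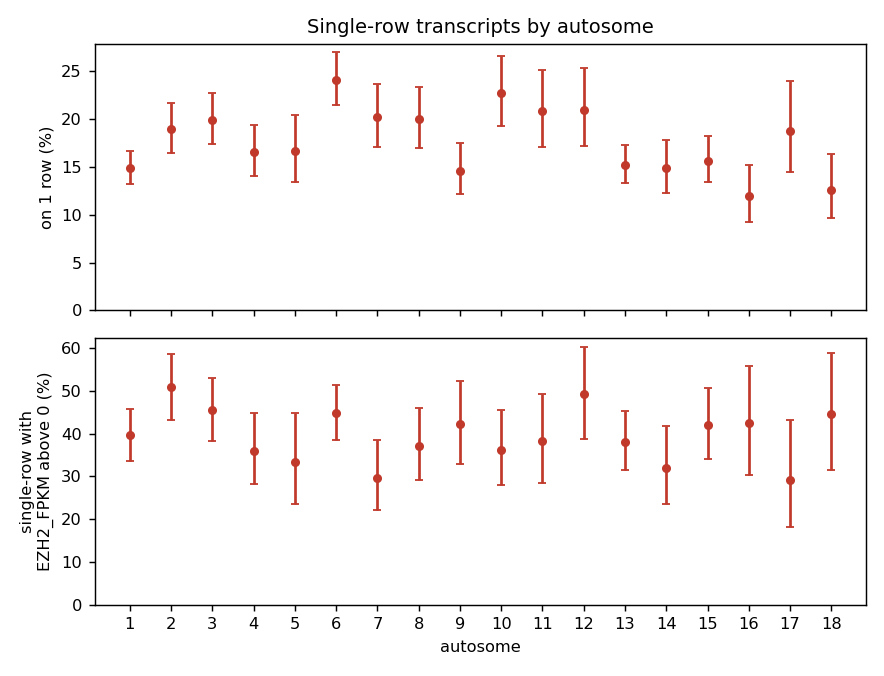
The upper panel plots, for each autosome, the percentage of transcripts listed on 1 row, and the lower panel the percentage of these single-row transcripts with an EZH2_FPKM value above 0. Points are shares and bars are 95% Wilson intervals; the share on 1 row runs from 11.9% on chromosome 16 to 24.1% on chromosome 6.

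In total muscle RNA the single-row transcripts displayed higher levels than the transcripts on 2 rows. FPKM scales the fragments of a transcript to its length and to the size of the library. The median lincRNA_FPKM, the value in the lincRNAseq library, was 1.08 (quartiles 0.370 and 4.30) for single-row transcripts and 0.341 (quartiles 0.170 and 0.581) for transcripts on 2 rows, a 3.16-fold difference of medians. On the log2(FPKM + 2) scale the medians were 1.62 and 1.23, a difference of 0.40. A lincRNA_FPKM value above 1 was found for 1117 single-row transcripts (51.3%, interval 49.2 to 53.4) and for 1473 transcripts on 2 rows (14.4%, interval 13.7 to 15.1). At a value above 10 the shares were 14.5% and 2.53%, and above 100 they were 2.44% and 0.488%. The single-row transcripts were thus spread more widely between their quartiles, while most transcripts on 2 rows lay below 1. The highest values were nevertheless on 2 rows, up to 19356 against 1097 for single-row transcripts. Of the 10 highest autosomal transcripts in lincRNAseq, 3 were single-row. A value of 0 in total RNA was given to 153 single-row transcripts (7.03%) and to 1757 on 2 rows (17.1%).

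**Figure D2:**
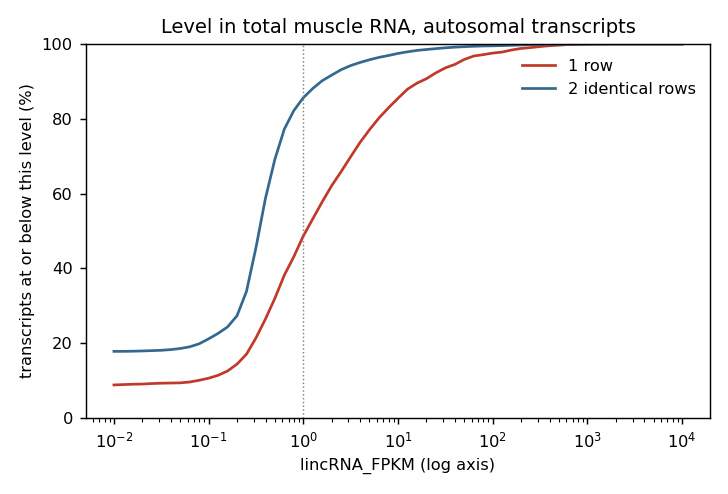
Cumulative percentage of autosomal transcripts (y axis) at or below each lincRNA_FPKM value (x axis, log scale), for transcripts on 1 row (red) and on 2 identical rows (blue); the dotted line marks an FPKM value of 1. At this line 51.3% of the single-row transcripts and 14.4% of those on 2 rows still lie above.

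The highest lincRNA_FPKM values of single-row transcripts belonged to TCONS_00025430 and TCONS_00041236. TCONS_00025430, on chromosome 15, was at 1097 in lincRNAseq, 545 in EZH2 RIP-Seq and 53.3 in IgG RIP-Seq. TCONS_00041236, on chromosome 3, was at 847 in lincRNAseq and 29.1 in EZH2 RIP-Seq, and was listed at 0 in IgG RIP-Seq. The first was abundant in all 3 libraries, and the second was far lower in the EZH2 precipitate than in total RNA.

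Although they were 17.5% of autosomal transcripts, single-row transcripts held 34.2% of the autosomal FPKM sum in lincRNAseq, 10.02% in EZH2 RIP-Seq and 9.18% in IgG RIP-Seq. These sums rest on a few transcripts. Without the 10 highest autosomal transcripts of each library, the shares were 52.1%, 15.9% and 18.3%. The share in total RNA exceeded the share in both precipitates either way.

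The first question asked of the precipitates was how many transcripts were found in them. The EZH2_FPKM value was above 0 for 876 single-row transcripts (40.3%, interval 38.2 to 42.3) and for 4441 transcripts on 2 rows (43.3%, interval 42.4 to 44.3). The IgG_FPKM value was above 0 for 184 (8.46%, interval 7.36 to 9.70) and 698 (6.81%, interval 6.34 to 7.31). Both precipitates held 141 single-row transcripts, the EZH2 precipitate alone 735 (33.8%), the IgG precipitate alone 43, and neither 1257 (57.8%). On 2 rows the EZH2 precipitate alone held 3898 (38.03%), and 5655 (55.2%) were in neither. Those in neither include 101 single-row transcripts and 1154 on 2 rows that were also at 0 in total RNA. They are counted in the totals behind these shares. Of the single-row transcripts in the IgG precipitate, 76.6% were also in the EZH2 precipitate (interval 70.0 to 82.2), against 77.8% of those on 2 rows (interval 74.6 to 80.7).

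Detection was mostly higher at higher levels in total RNA, and since the groups differ in that level they were compared within classes of lincRNA_FPKM. In the class above 0.3 to 1, the largest in both groups, 231 of 620 single-row transcripts were found with EZH2 (37.3%, interval 33.5 to 41.1), against 2080 of 4414 on 2 rows (47.1%, interval 45.7 to 48.6). In the class above 1 to 3 the shares were 42.3% and 46.2%, and above 3 to 10 they were 45.1% and 49.9%, with overlapping intervals. Above 100 the order was the other way, with 33 of 53 (62.3%) against 24 of 50 (48.0%), also with overlapping intervals. Where lincRNA_FPKM was 0 the shares were alike, at 32.7% and 32.7%. With the class shares of the transcripts on 2 rows weighted by the class sizes of the single-row transcripts, 45.4% would be detected with EZH2, and the single-row share was lower by 5.18 percentage points (from −7.73 to −2.64, 95% interval from a normal approximation). With 1 transcript kept per run of consecutive identifiers this difference was −2.46 points (−5.85 to 0.93), so that it was then not distinguishable from 0. The transcript kept was the one with the highest lincRNA_FPKM, which left 1390 single-row transcripts and 2944 on 2 rows. This choice also changes the make-up of the groups by total-RNA level, so it is not a correction for shared reads alone. For IgG the weighted share was 8.12% and the difference was 0.34 points (−1.12 to 1.80), which is not distinguishable from 0 with these numbers. The groups could not be matched on transcript length, which is not in the files, and the part of length in these differences was not tested.

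**Figure D3:**
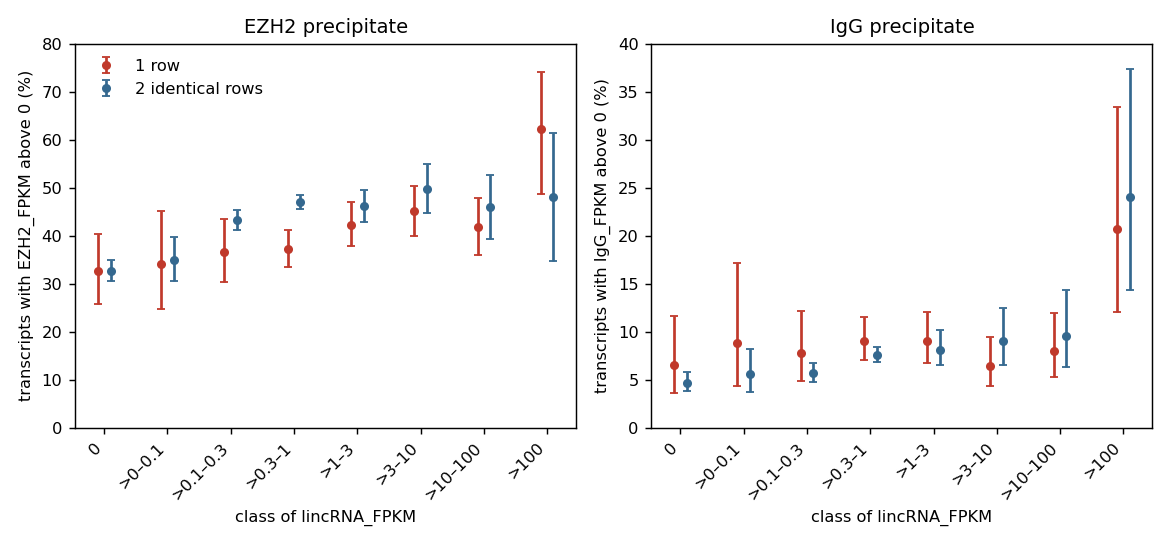
Percentage of autosomal transcripts with an FPKM value above 0 in the EZH2 precipitate (left) and the IgG precipitate (right), by class of lincRNA_FPKM on the x axis, for transcripts on 1 row (red) and on 2 identical rows (blue). Points are shares and bars are 95% Wilson intervals; in the class above 0.3 to 1 the EZH2 shares are 37.3% and 47.1%.

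Where transcripts were detected, the medians in the precipitates were lower for single-row transcripts in most classes of total-RNA level. The median EZH2_FPKM of detected transcripts was 2.94 (quartiles 1.14 and 7.40) for single-row transcripts, and 3.17 for transcripts on 2 rows. Within classes of lincRNA_FPKM the single-row median was the lower in 7 of 8, the exception being the class above 10 to 100. The weighted difference of class medians was −0.30 on the log2(EZH2_FPKM + 2) scale. For IgG the medians were 3.44 and 5.71, the single-row median was the lower in 6 of 8 classes, and the weighted difference was −0.45.

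A part of the single-row values above 0 was very small. What 1 fragment is worth in FPKM depends on the length of the transcript and is unknown here. Of the 876 EZH2_FPKM values above 0, 73 were below 0.01 (8.33%, interval 6.68 to 10.4), against 10 of 4441 on 2 rows (0.225%). For IgG_FPKM it was 19 of 184 (10.3%) against 2 of 698 (0.287%), and for lincRNA_FPKM 40 of 2023 (1.98%) against 72 of 8494 (0.848%). Of the 73 small EZH2_FPKM values, 62 (84.9%) belonged to transcripts whose identifier directly precedes or follows that of another single-row transcript, against 59.4% of the 876. Counting a transcript as detected only above 0.1 left 791 single-row transcripts with EZH2 (36.4%) and 4429 on 2 rows (43.2%). The difference at matched total-RNA level became −8.94 points (−11.5 to −6.42). This interval treats neighbouring transcripts as independent, and no comparison with 1 transcript per run of consecutive identifiers was made at this minimum.

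The depth of the precipitates could be compared where a transcript was in both, since its length cancels in the ratio of the values. The commonest ratio of IgG_FPKM to EZH2_FPKM was 5.05, found in 77 of 815 transcripts of the whole series, which would be the relative worth of a fragment in the IgG library if such transcripts held the same number of fragments in both. A ratio within 0.1% of this value times 1, 2 or 3 and divided by a whole number up to 10 was found for 57.6% of 543 autosomal transcripts on 2 rows (interval 53.4 to 61.7) but for 26.2% of 141 single-row transcripts (interval 19.7 to 34.1). The ratios of single-row transcripts thus fell less often on these steps, and the reason was not tested. The number of fragments behind a value, or allowed by a value of 0, is unknown in all 3 libraries.

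The ratios used in the study were then computed for transcripts with a lincRNA_FPKM above 1 and an EZH2_FPKM above 0, which were 492 single-row transcripts and 694 on 2 rows. The ratio of EZH2 to total RNA, log2[(EZH2_FPKM + 2)/(lincRNA_FPKM + 2)], had a median of −0.33 for single-row transcripts (quartiles −1.12 and 0.57) and of 0.33 for those on 2 rows. It was at least 1 for 77 single-row transcripts (15.7%, interval 12.7 to 19.1) and at most −1 for 144 (29.3%, interval 25.4 to 33.4). Over all 1570 transcripts of the series that met the same limits, 27.7% were at least 1 and 22.4% at most −1. The single-row share that was higher in the precipitate was thus below the background and the share that was lower was above it. On 2 rows the shares were 33.9% and 16.4%. Because single-row transcripts were more abundant in total RNA, which is the denominator, the shares were also compared at matched lincRNA_FPKM, where 29.0% of the transcripts on 2 rows would be at least 1, a difference of −13.3 points (−18.0 to −8.71). In the class above 1 to 3 the shares were 24.1% of 187 and 43.5% of 398, and above 3 to 10 they were 11.7% of 162 and 26.1% of 176, in both with intervals that do not overlap. Above 10 to 100 they were 11 of 110 against 13 of 96 (13.5%), and above 100 they were 2 of 33 against 3 of 24, in both with intervals that overlap widely.

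**Figure D4:**
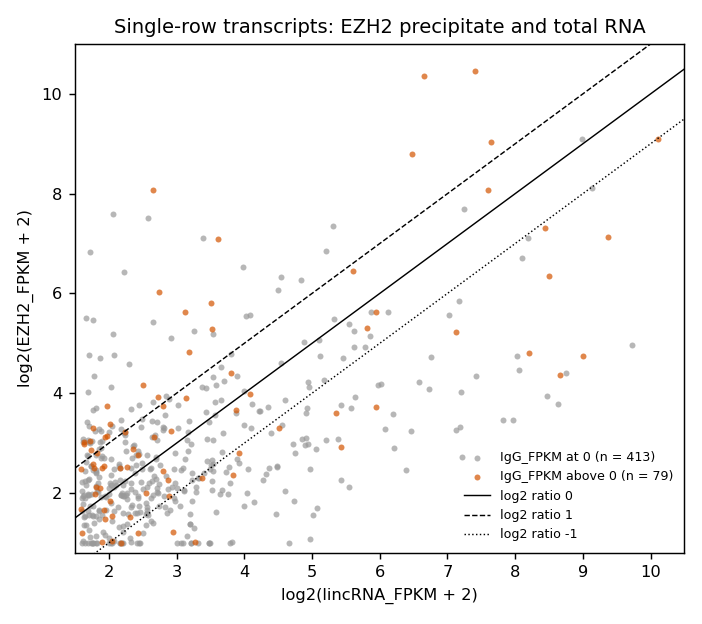
Each point is a single-row autosomal transcript with a lincRNA_FPKM above 1 and an EZH2_FPKM above 0, with log2(lincRNA_FPKM + 2) on the x axis and log2(EZH2_FPKM + 2) on the y axis; orange points have an IgG_FPKM above 0 (n = 79) and grey points of 0 (n = 413). The lines mark log2 ratios of 1, 0 and −1, and 77 points lie on or above the upper line and 144 on or below the lower one.

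Among the 413 single-row transcripts with IgG_FPKM at 0, the ratio to total RNA was at least 1 for 55 (13.3%) and at most −1 for 124 (30.0%). Over all 1316 such transcripts of the series the shares were 26.4% and 23.0%, and on 2 rows they were 33.3% and 16.2%. The largest ratio was 5.55, for TCONS_00045321 on chromosome 4, with an EZH2_FPKM of 192 and a lincRNA_FPKM of 2.15. It was followed by 5.11 for TCONS_00016016 on chromosome 13, with an EZH2_FPKM of 112 and a lincRNA_FPKM of 1.30. Both were high in the EZH2 precipitate and low in total RNA. The smallest ratios were −4.86 for TCONS_00036291 on chromosome 2 (EZH2_FPKM 11.8, lincRNA_FPKM 397) and −4.77 for TCONS_00041236 described above. Closest to the limit of 1 were TCONS_00047204 with 1.01 (EZH2_FPKM 9.25, lincRNA_FPKM 3.59) and TCONS_00036031 with 0.998 (EZH2_FPKM 12.7, lincRNA_FPKM 5.38).

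Against the control antibody, the shares of single-row transcripts were near the background. Among the 79 with IgG_FPKM above 0, log2[(EZH2_FPKM + 2)/(IgG_FPKM + 2)] had a median of 0.47 and was at least 1 for 28 (35.4%, interval 25.8 to 46.4) and at most −1 for 10 (12.7%, interval 7.02 to 21.8). The background over 254 transcripts was 34.6% and 18.5%, and on 2 rows the shares were 32.1% and 16.1% of 112. The intervals overlap widely, and 79 transcripts do not resolve a difference of this size. The largest ratio was 4.28, for TCONS_00054026 on chromosome 6, whose EZH2_FPKM was 36.9 and whose IgG_FPKM was 0.00534, among the very small values. It was followed by TCONS_00025430 with 3.31. The smallest was −3.16 for TCONS_00003698 on chromosome 1, at 13.9 in EZH2 RIP-Seq, 140.3 in IgG RIP-Seq and 14.9 in lincRNAseq, and then −2.72 for TCONS_00042379 on chromosome 3, at 5.90 in EZH2 RIP-Seq and 49.95 in IgG RIP-Seq. The FPKM values of this last pair were higher with IgG than with EZH2, but the number of fragments behind them is unknown and may be very small. Closest to the limit were TCONS_00032061 with 1.01 and TCONS_00013624 with 0.95.

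Among single-row transcripts, the highest values of both precipitates belonged to the same pair on chromosome 2. Transcripts on 2 rows reached far higher values, up to 37498 in EZH2 RIP-Seq and 9387 in IgG RIP-Seq. TCONS_00037579 was at 1397 in EZH2 RIP-Seq, 417 in IgG RIP-Seq and 168 in lincRNAseq. TCONS_00035457 was at 1316 in EZH2 RIP-Seq, 244 in IgG RIP-Seq and 98.2 in lincRNAseq. Their log2 ratios of EZH2 to IgG were 1.74 and 2.42, and their IgG_FPKM values were themselves above total RNA, with log2 ratios of 1.30 and 1.30.

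With the study's rule, which takes the ratio to IgG where IgG_FPKM is above 0 and to total RNA where it is 0, 83 single-row transcripts reached a ratio of 1, or 16.9% of 492 (interval 13.8 to 20.4). The background was 27.8% of 1570, and on 2 rows 230 of 694 passed (33.1%, interval 29.7 to 36.7). Coding potential, which the study also required, was not applied here.

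The order of the identifiers was not used to choose the transcripts, and the following groups were defined after the data were seen. Along each autosome, in identifier order, single-row transcripts and those on 2 rows formed separate blocks, 5 to 7 per chromosome and 104 in all. The last 2 pairs of blocks, each a single-row block followed by a block on 2 rows, were present on each of the 18 autosomes, and are called here the last and the middle stretch; what came before them is called the first stretch. The single-row transcripts numbered 35 in the first, 899 in the middle and 1242 in the last stretch. How the order arose is not given in the sources used here. By the paper's methods, the transcripts were assembled from reads of these same RIP-Seq and lincRNAseq libraries. Detection in a library is thus not independent of which transcripts were listed, and detection by stretch is given as a description. Whether the stretches follow the libraries was not tested.

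The 35 single-row transcripts of the first stretch, on 12 autosomes and mostly on chromosomes 2 and 15 with 10 each, had an EZH2_FPKM above 0 without exception, and so did 200 of the 201 transcripts on 2 rows in this stretch (99.5%). The EZH2_FPKM of the 35 ran from 13.6 to 1316 with a median of 136, and the median on 2 rows was 138. High values with EZH2 were thus shared by both groups in this stretch. Since the transcripts were assembled from these libraries, this describes the list and is not an independent finding on EZH2. The 35 held 50.1% of the FPKM sum of all 2176 single-row transcripts in EZH2 RIP-Seq, 39.4% in IgG RIP-Seq and 14.6% in lincRNAseq, so that the sums were concentrated in them in both precipitates. Of single-row values, 21 of the 28 above 100 in EZH2 RIP-Seq and 2 of the 4 above 100 in IgG RIP-Seq belonged to them. Of the 35, 17 were also above 0 in the IgG precipitate (48.6%, interval 33.0 to 64.4), against 23.9% on 2 rows (interval 18.5 to 30.2). Most of these 17 lie on chromosomes 2 and 15, some with neighbouring identifiers, and the interval treats them as independent. In total RNA 23 of the 35 were above 0 (65.7%, interval 49.2 to 79.2), against 46.3% on 2 rows (interval 39.5 to 53.2). TCONS_00025430, TCONS_00035457, TCONS_00045321 and TCONS_00016016 named above belong to this stretch.

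In the last stretch 1241 of 1242 single-row transcripts had a lincRNA_FPKM above 0, as did 6153 of 6154 on 2 rows. In the middle stretch it was 759 of 899 (84.4%), against 57.7% on 2 rows. The medians in total RNA also varied between the stretches. The median lincRNA_FPKM was 0.921 against 0.404 in the last stretch and 1.44 against 0.0848 in the middle stretch, where it was 2.48 against 0.325 among transcripts above 0. EZH2 detection was compared within each of these stretches. In the last stretch 446 single-row transcripts were found with EZH2 (35.9%, interval 33.3 to 38.6), against 46.3% of 6154 on 2 rows (interval 45.1 to 47.6), and the single-row share was the lower on 17 of 18 chromosomes. In the middle stretch it was 395 (43.9%, interval 40.7 to 47.2) against 35.7% of 3896 (interval 34.2 to 37.2), and the single-row share was the lower on 3 of 18. At matched lincRNA_FPKM the difference was −8.27 points in the last stretch (−11.5 to −5.08) and −1.27 points in the middle stretch (−5.60 to 3.06). The matched difference was thus not distinguishable from 0 in the middle stretch, and the difference between the stretches was not tested. The share with a ratio of EZH2 to total RNA of at least 1 was lower for single-row transcripts in both, with 12.6% of 207 against 21.2% of 358 in the last stretch and 14.7% of 265 against 36.5% of 274 in the middle stretch. At matched lincRNA_FPKM these differences were −6.24 points (−12.1 to −0.36) and −12.4 points (−18.8 to −6.01). In the first stretch 12 of 20 single-row transcripts reached this ratio, against 95.2% of 62 on 2 rows. At matched lincRNA_FPKM this difference was −20.0 points (−46.8 to 6.78), which is not distinguishable from 0 with so few transcripts. The intervals within stretches treat neighbouring transcripts as independent. No comparison with 1 transcript per run of consecutive identifiers was made within stretches.

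**Figure D5:**
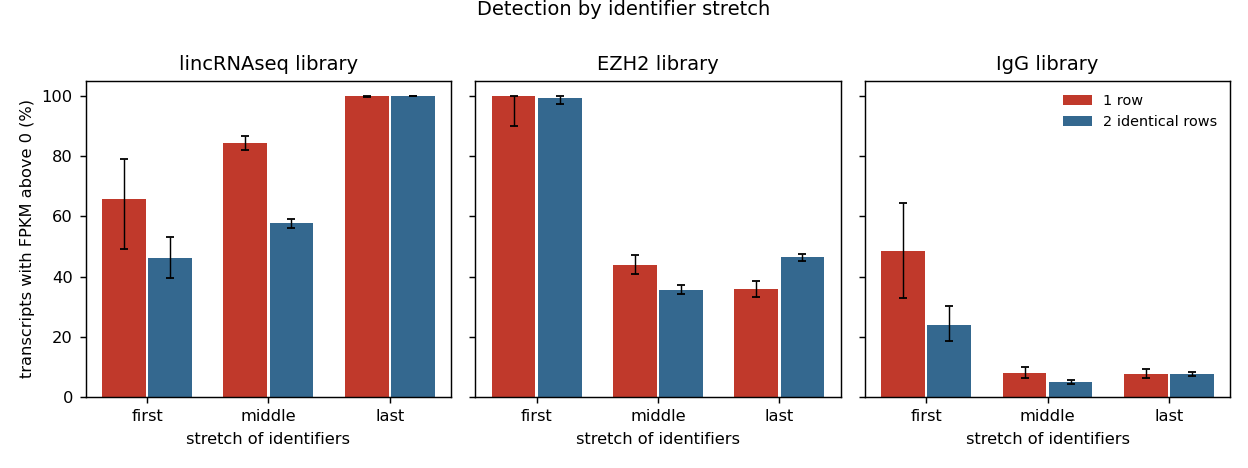
Percentage of autosomal transcripts with an FPKM value above 0 in the lincRNAseq, EZH2 and IgG libraries (panels), by stretch of identifiers on the x axis, for transcripts on 1 row (red) and on 2 identical rows (blue), with 95% Wilson intervals. In the EZH2 library the first stretch stands at or near 100%, and the order of red and blue is opposite in the middle (43.9% and 35.7%) and last (35.9% and 46.3%) stretches.

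Single-row transcripts also differed in how their identifiers follow each other. Transcripts assembled at the same place often receive neighbouring numbers and can share reads. Of the 2176 single-row transcripts, 913 (42.0%) had no single-row neighbour with the next or the previous number, and the other 1263 lay in runs, of which 318 were pairs and 159 were longer. On 2 rows 12.0% of the transcripts had no such neighbour. Single-row transcripts outside runs had a median lincRNA_FPKM of 1.44 and those in runs of 0.934, with EZH2 detected for 39.0% (interval 35.9 to 42.2) and 41.2% (interval 38.5 to 43.9). On 2 rows EZH2 was detected for 38.5% outside runs (interval 35.9 to 41.3) and 43.98% in runs (interval 42.96 to 45.004). Outside runs the single-row share was thus not lower, without matching on total-RNA level. Over the 786 adjacent pairs within runs, the correlation of log2(FPKM + 2) was 0.48 in lincRNAseq, 0.41 in EZH2 RIP-Seq and 0.30 in IgG RIP-Seq. Over 7307 pairs on 2 rows it was 0.17, 0.41 and 0.19, and the differences between the groups were not tested. EZH2 detection was the same in both members for 66.3% of the single-row pairs and for 58.3% of the pairs on 2 rows. The members of a pair come from the same library and may share reads, and these values are a description.

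The longest run of single-row transcripts, with 22 from TCONS_00042539 to TCONS_00042560 on chromosome 3, was well beyond their next longest of 8. Its lincRNA_FPKM values ran from 0.240 to 0.937 with a median of 0.482, so that none reached the study's minimum of 1. The EZH2_FPKM value was above 0 for 14 of the 22, from 0.379 to 8.03, and the IgG_FPKM value for 2, at 3.57 and 3.83. The run lies in the last stretch, where nearly all transcripts were above 0 in total RNA. In that stretch EZH2 was detected for 35.9% of single-row transcripts and 46.3% of those on 2 rows, and IgG for 7.65% and 7.51%. Over all transcripts of the series the shares were 42.7% with EZH2 and 7.15% with IgG. The difference between the run and these shares was not tested. On 2 rows the longest run held 123 transcripts.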

How the data were processed

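The 3 groups, lincRNAseq, EZH2 RIP-Seq and IgG RIP-Seq, had 1 library each. For every assembled transcript the authors deposited an FPKM value, estimated by Cuffdiff after read trimming, TopHat2 alignment (genome Sus_scrofa 10.2), Cufflinks assembly and a Cuffcompare step against known genes. Versions and numbers of reads are not given in the sources used here, and fragments cannot be recovered from FPKM without lengths, so the depth of single values is unknown. Each of the 26521 rows per file was read, identical rows were merged to 14580 transcripts, and chromosomes 1 to 18 were kept. Shares have 95% Wilson intervals. Transcripts on 2 rows were weighted to the single-row numbers in 8 classes of lincRNA_FPKM (0, and up to 0.1, 0.3, 1, 3, 10, 100 and above). Ratios had 2 added to both values and a limit of 1 on the log2 scale, as in the study's methods. The added 2 understates the ratios of low transcripts.

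Transcripts, classes and comparisons were chosen with earlier results of these data known. Named transcripts are the 2 highest per library, the 2 largest and 2 smallest ratios to IgG and, with IgG_FPKM at 0, to total RNA, those nearest the limit, and the ends of the longest run of identifiers; the highest EZH2_FPKM with lincRNA_FPKM at 0 was added after its value was seen. The identifier stretches were defined after the data were seen. The code was tested on simulated data. Alternatives were other pseudocounts, limits, filters, classes and chromosome sets. No sequence is printed, because no genome of this assembly was used here. Computation used Python 3.11.15 with pandas 2.3.3 and numpy 2.4.6, intervals came from scipy 1.17.1, and figures were drawn with matplotlib 3.10.9.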

Additional observations from a re-analysis of the deposited data

Results flagged for a closer look

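A signal was seen in single-row transcripts that the ratio comparisons leave out because their lincRNA_FPKM is 0. The highest EZH2_FPKM among these 153 transcripts was 345, for TCONS_00035508 on chromosome 2, and its IgG_FPKM was listed at 0. It is given here as the highest EZH2_FPKM of these transcripts. What a value of 0 allows is unknown, so this does not place it above the control antibody. It lies in the first stretch of identifiers, where all 35 single-row transcripts were above 0 with EZH2. An EZH2_FPKM of at least 100 was found for 6 of the 153 (3.92%, 95% Wilson interval 1.81 to 8.29), and 4 of these 6 were above 0 with IgG. On 2 rows it was 97 of 1757 (5.52%, interval 4.55 to 6.69), of which 20 were above 0 with IgG. The first stretch held 5 of these 6 single-row transcripts and 85 of these 97 on 2 rows. Of the 153, 50 were above 0 in the EZH2 precipitate with a median of 8.48, 10 in the IgG precipitate and 8 in both. The share with EZH2 was 32.7%, as it was for the 1757 transcripts on 2 rows with lincRNA_FPKM at 0 (32.7%), whose median where detected was 12.2 and whose highest value was 37498, so that the signal is not particular to single-row transcripts. There was 1 library per antibody, and the difference has no replicate check.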

How the results depend on the processing

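Of 68 values of 12 results under other settings, 43 stayed within the interval of the reported value (for counts, within 1.5 times), 25 moved outside it and 0 changed sign where the reported interval excluded 0; the causes were not tested. The difference in total-RNA level (0.40) was 0.47 over all chromosomes and scaffolds, 0.50 with lincRNA_FPKM above 0.1, 0.50 above 1, and 0.63 and 1.42 with pseudocounts of 1 and 0.1, which change the scale. EZH2 detection of single-row transcripts (40.3%) was 36.4% and 31.0% with values above 0.1 and above 1, and, in stretches chosen after seeing the data, 43.9% in the middle and 35.9% in the last; IgG detection was 6.89% with values above 1. The EZH2 difference at matched level (−5.18 points) was −8.94 and −8.90 with these minimums, and −1.27 in the middle and −8.27 in the last stretch. With 1 transcript per run of identifiers, the highest in total RNA, it was −2.46 (−5.85 to 0.93). Its interval includes 0 there and in the middle stretch. The share with a ratio to total RNA of at least 1 (15.7%) was 22.6% with a pseudocount of 0.1 and 22.8% with lincRNA_FPKM above 0.1. It was 5.69% at a limit of 2. When centred on the median over all transcripts above 0 in both libraries (0.79), it was 6.10%. The matched difference of this share was below 0, with an interval without 0, under each of its 7 alternatives. Ratios to IgG of at least 1 (28) numbered 13 at a limit of 2, and those of at most −1 (10) numbered 16 with a pseudocount of 0.1, 23 with lincRNA_FPKM above 0.1 and 4 at a limit of 2. The study's rule (83) gave 173 with lincRNA_FPKM above 0.1 and 33 at a limit of 2. A minimum of 0.1 lets in more transcripts than a minimum of 1. The numbers tested and the background at these other settings are not given here. The counts for this rule and for ratios to IgG therefore cannot be set against a background. The depth is unknown, which limits what a value of 0 shows. No paired analysis was possible because the data hold 1 library for each condition, without any test.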

Other observations

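Single-row transcripts outside the autosomes numbered 463, of which 64 were on chromosome X and 399 on unplaced scaffolds. On chromosome X they were 15.6% of 409 transcripts, with a median lincRNA_FPKM of 0.758 and EZH2 detected for 22 (34.4%, 95% Wilson interval 23.9 to 46.6). On the scaffolds they were 22.9% of 1744, with a median lincRNA_FPKM of 3.98 and EZH2 detected for 137 (34.3%, interval 29.8 to 39.1).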
